A study of Homo sapiens with 8 samples.

Results

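The BCL2 family genes were followed as 10 listed members among 20098 protein-coding genes on chromosomes 1 to 22 and X. The members were listed by name, with earlier results of these data known. They are 4 survival genes (BCL2, BCL2A1, BCL2L1 and MCL1) and 6 death genes, namely the effectors BAX and BAK1 and the BH3-only genes BID, BCL2L11, BBC3 and PMAIP1. The cells were HL-60, a human line established from promyelocytic leukemia, which matures along the granulocytic lineage under all-trans retinoic acid (ATRA). The ATRA group received 1 µM ATRA dissolved in ethanol for 4 days, the control group received the same amount of ethanol, and medium and agent were renewed on the way. H3K4me3 and H3K27ac were each profiled by ChIP-seq in 2 replicates of both groups, which gave 8 libraries of broad peaks on hg19. All libraries came from the same cell line, and the labels do not say whether replicates came from separate cultures, so the spread between them may be technical.

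Proteins of the BCL2 family decide whether the mitochondrial outer membrane is permeabilized during apoptosis. Survival proteins such as BCL2 and MCL1 hold BAX and BAK1 in check, BAX and BAK1 form the pores that release cytochrome c, and BH3-only proteins either activate the effectors or occupy the survival proteins. Neutrophils are short-lived cells in which MCL1 and BCL2A1 are known as the prominent survival members, whereas BCL2 is known from precursors and lymphocytes. H3K4me3 marks active promoters, and H3K27ac marks active promoters and enhancers.

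Each value below is a length in bp under the deposited peaks. The window of a gene is its body plus 20 kb on each side, and the TSS is that of its canonical transcript. A member was counted as higher when both ATRA libraries lay above both control libraries, and as lower in the opposite case. In bulk chromatin, a longer peak in each cell and more cells that carry it cannot be told apart. The H3K4me3 libraries held 13241 to 16487 peaks covering 47.7 to 63.2 Mb. Peak numbers were less even for H3K27ac, at 28200 and 39332 in the ATRA group (64.8 and 86.1 Mb) against 15457 and 29616 in the control group (28.8 and 54.0 Mb). The part of this larger covered length in the H3K27ac differences was not tested, and the counts of windows are also given after scaling all libraries to the same covered length and after keeping the same number of peaks in each. The study itself reports fewer peaks of both marks with ATRA than in control, and its methods kept peaks found in both replicates. That order is opposite to the order in the deposited libraries, and the reason was not tested. Of 6 myeloid precursor genes, 4 (SPI1, MPO, CEBPA and CD33) carried H3K4me3 at the TSS in all 4 libraries, while ELANE did in none. PRTN3 carried it in both ATRA libraries but not in both control libraries. Of 6 genes of granulocytic differentiation, 4 carried it in both ATRA libraries and 0 in both control libraries, with NCF1 and FPR1 free of it throughout. The 4 T-cell and 3 hepatocyte genes had no such peak in any library, CD79A was the only one of 4 B-cell genes with a peak (in both ATRA libraries), and KLF1 was the only one of 4 erythroid genes (in both control libraries).

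The members differ in the kind of promoter they have, which is shown here for the 2 members with the largest H3K27ac difference in favor of ATRA. The 250 bp in front of the BCL2A1 TSS (hg19, chr15:80263539-80263788, minus strand) have a GC content of 38.8% and 2 CpG dinucleotides, and those in front of the PMAIP1 TSS (chr18:57566978-57567227, plus strand) have 72.8% and 36. Capitals mark every match to the motifs named in the next paragraph, on either strand.
BCL2A1 promoter: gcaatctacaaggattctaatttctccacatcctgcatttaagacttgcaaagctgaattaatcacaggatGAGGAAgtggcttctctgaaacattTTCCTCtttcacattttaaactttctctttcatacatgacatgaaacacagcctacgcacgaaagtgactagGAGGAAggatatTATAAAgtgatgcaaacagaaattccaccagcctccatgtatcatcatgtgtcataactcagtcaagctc
PMAIP1 promoter: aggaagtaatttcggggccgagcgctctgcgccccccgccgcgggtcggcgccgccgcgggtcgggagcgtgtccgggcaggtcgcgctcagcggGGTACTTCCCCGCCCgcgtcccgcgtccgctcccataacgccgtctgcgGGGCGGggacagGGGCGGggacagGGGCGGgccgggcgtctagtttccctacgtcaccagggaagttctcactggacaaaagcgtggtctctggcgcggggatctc
The other 8 members have between 58.0% and 82.0% GC in the same interval, against a median of 63.2% over 20094 promoters, so that BCL2A1 is the only member with an AT-rich promoter.

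The letters searched were AGGTCA (half-site of retinoic acid receptors), GAGGAA (the core bound by PU.1-type ETS factors), TGTGGT (RUNX), AGATAA (bound by GATA factors), TTGCNNAA (C/EBP), TGANTCA (AP-1), GGGANNNNCC (NF-kB), TATAAA (the TATA box) and GGGCGG (GC box). In this order, 9.99%, 23.2%, 8.92%, 6.61%, 7.1%, 4.73%, 26.5%, 9.42% and 58.6% of all promoters hold at least 1 match. The BCL2A1 promoter holds 3 matches to GAGGAA and 1 to TATAAA, and none to the others. The PMAIP1 promoter holds 4 matches to GGGCGG and 1 to GGGANNNNCC, which shares its last letter with one of the GC boxes. Among the other members, BBC3 has 10 GC boxes in its interval, BID has 4, and MCL1 and BCL2L11 have 3 each. None of the 10 promoters holds AGGTCA. A match is a description of the letters only.

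H3K4me3 covered the TSS of all 10 members in all 4 libraries, as it did for 92.9% of the 10906 genes with a TSS peak in at least 1 library and for 50.4% of all genes. The peak was longer in both ATRA libraries at 5 members (BCL2A1, BCL2L1, MCL1, BID and PMAIP1) and shorter at 1 (BCL2), beside 41.3% and 4.69% of genes in these directions. Without control replicate 1, 8 members were longer, and without control replicate 2, 3 were shorter. H3K27ac was less uniform: its peaks covered the TSS in all 4 libraries at BCL2 and MCL1 only, against 44.8% of the 8734 genes with such a peak in any library and 19.5% of all genes. Counting a peak within 1 kb of the TSS, BCL2L1, BAK1, BID, BCL2L11 and PMAIP1 also had one in all 4 libraries. The share over all genes was not computed for this wider definition. H3K27ac covered the TSS itself in both ATRA libraries and no control library at BCL2L1 and PMAIP1 (6.97% of the same 8734 genes), and in both control libraries and no ATRA library at 0 members (0.996%). The H3K27ac peak at the TSS was longer in both ATRA libraries at 5 members (BCL2A1, BCL2L1, MCL1, BID and PMAIP1) and shorter at 1 (BCL2L11), beside 30.5% and 3.66% of genes. Leaving out control replicate 1 or control replicate 2 raised the shorter members to 4 and 2, and with the same number of peaks in each library 0 members were longer. With all deposited peaks the same 5 genes were thus longer in both marks, while BCL2 differed between the marks. The share of all genes longer in both marks was not computed, so this joint count has no background beside it.

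**Figure D1:**
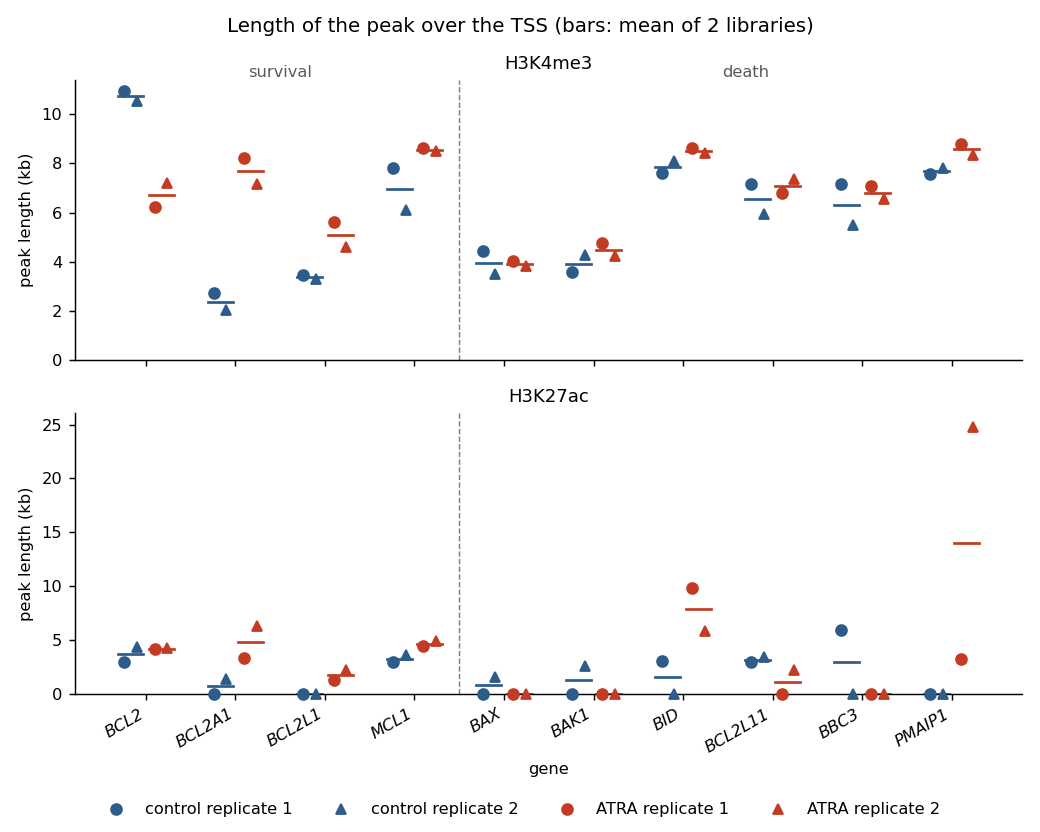
Length of the peak over the TSS of each member in kb, for H3K4me3 (top) and H3K27ac (bottom). Each point is 1 library (blue control, red ATRA, circles replicate 1, triangles replicate 2), bars are the means of 2 libraries, and 0 means that no peak covered the TSS; BCL2 is the only member with a shorter H3K4me3 peak in both ATRA libraries, and the 24801 bp H3K27ac peak at PMAIP1 in ATRA replicate 2 is the longest point.

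Over whole windows, the H3K4me3 length was higher upon ATRA treatment at 5 members (BCL2A1, BCL2L1, BAK1, BID and PMAIP1), lower at 0 and overlapping at 5, beside 42.2% of 14282 genes higher and 3.43% lower. A share of 5 in 10 is close to that background, and after scaling to the same covered length 1 member was higher (BCL2A1) and 4 were lower. Without control replicate 1, all 10 members were higher, and without control replicate 2, 3 were lower. For H3K27ac, 6 members were higher (BCL2A1, BCL2L1, MCL1, BAX, BID and PMAIP1) and 2 were lower (BCL2 and BBC3), beside 45.7% of 14737 genes higher and 3.99% lower. Scaling turned this split to 2 higher and 5 lower, and the same number of peaks in each library gave 3 higher and 5 lower. For both marks, the shares of all genes under these settings were not computed, so these counts have no background beside them. Scaling also moved the median log2 difference of all genes, from 0.16 to −0.03 for H3K4me3 and from 0.53 to −0.12 for H3K27ac. Under scaling and under equal peak numbers, BCL2A1 and PMAIP1 stayed among the members higher in H3K27ac and BCL2 and BBC3 among the lower ones. At a −log10 q of at least 5, MCL1 alone was higher and 0 members were lower. PMAIP1 and BCL2A1 had the highest and BBC3 and BCL2 the lowest H3K27ac log2 differences of the 10 members.

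In limma fits across all genes without a replicate term, with Benjamini-Hochberg adjustment, 0 members passed an adjusted p of 0.05 in either mark. The fit called 7 genes higher (0.049%) and 3 lower (0.021%) for H3K4me3, and 0 in either direction for H3K27ac (0.0%), where 2861 genes (19.4%) had an unadjusted p under 0.05. Unadjusted, 1 member passed for H3K4me3 (BCL2A1, beside 10.8% of genes) and 6 for H3K27ac (BCL2, BCL2A1, MCL1, BID, BBC3 and PMAIP1). The smallest p that an exact two-sided permutation test allows in this design is 0.33. The differences described in the following paragraphs are therefore given library by library.

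**Figure D2:**
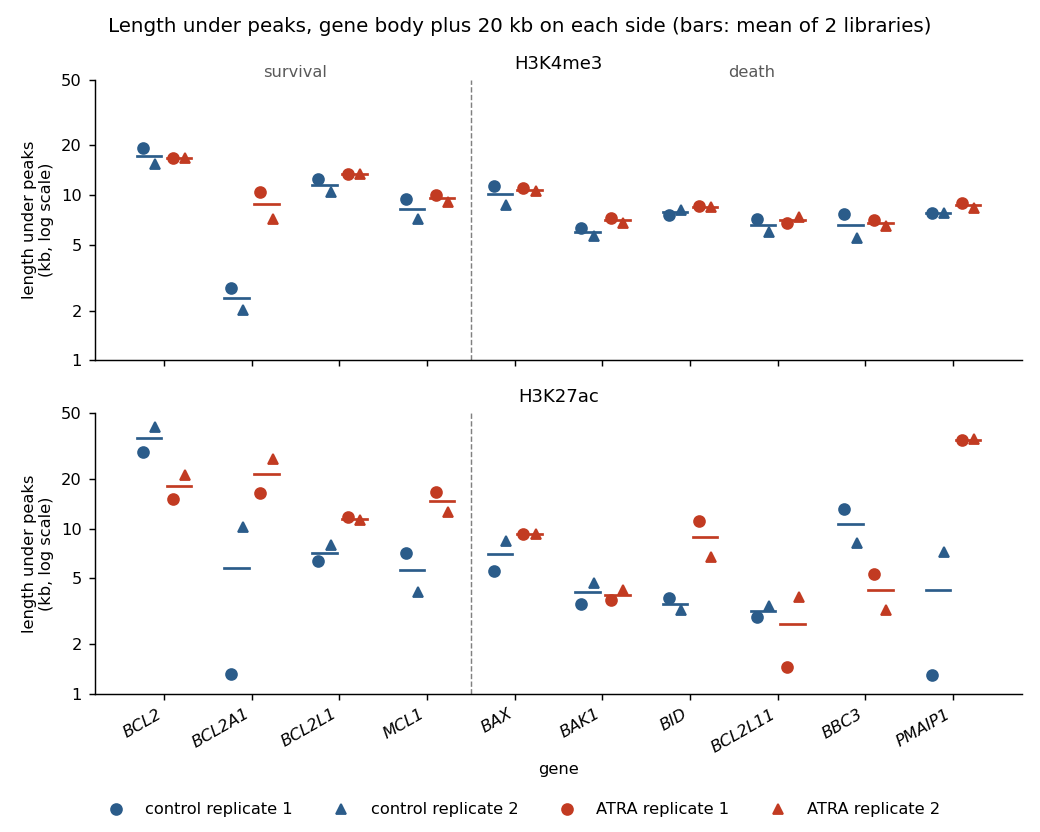
Length under peaks in the window of each member in kb on a log axis, for H3K4me3 (top) and H3K27ac (bottom), with points and bars as in the plot of TSS peaks. The H3K27ac points of BCL2A1, MCL1, BID and PMAIP1 lie higher in both ATRA libraries and those of BCL2 and BBC3 lower; with all libraries scaled to the same covered length the groups of BCL2A1, PMAIP1, BCL2 and BBC3 still do not overlap.

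BCL2, the founding survival gene, lies on the minus strand at chr18:60790579-60987361. The H3K4me3 peak over its TSS was 6243 and 7210 bp long in ATRA replicates 1 and 2, against 10950 and 10519 bp in the control replicates. The groups did not overlap, and the difference lay on the gene side of the peak. Its upstream edge stood between −3083 and −3412 bp from the TSS in all 4 libraries, whereas its far edge stood 3159 and 4060 bp into the gene with ATRA and 7537 and 7398 bp in control. The lengths at the TSS were the same with only peaks of a −log10 q of at least 5. The H3K4me3 length over the whole window overlapped between groups (16827 and 16731 bp with ATRA, 19206 and 15516 bp in control), with a log2 difference of −0.04 (SE 0.16), and that difference is positive in some of the alternative settings.

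H3K27ac at the BCL2 TSS overlapped between groups, with peaks of 4146 and 4236 bp in ATRA against 2976 and 4386 bp in control. Over the whole window it measured 15110 and 21112 bp in ATRA against 29108 and 41371 bp in control. Both ATRA libraries were below both control libraries. The log2 difference was −0.92 (SE 0.35, limma adjusted p = 0.245), and 1.95% of the genes tested had a lower one. Within replicate 1 and within replicate 2 it was −0.90 and −0.94. At a −log10 q of at least 5 little H3K27ac was left in the window (0 and 1720 bp against 2093 and 0 bp), and the groups overlapped. With flanks of 5 kb they also overlapped (14550 and 21112 bp against 16522 and 26371 bp, a log2 difference of −0.24). With flanks of 50 kb they did not (20085 and 28520 bp against 42401 and 60681 bp, a log2 difference of −1.05).

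The H3K27ac difference at BCL2 lay mostly far from its promoter. More than 2 kb from any TSS the window held 8940 and 13612 bp with ATRA and 22199 and 33847 bp in control. In the 40000 bp beyond the 3′ end of the gene (chr18:60750579-60790578), an interval chosen after its values were seen, H3K27ac covered 5099 and 4657 bp with ATRA against 26141 and 31287 bp in control. That is 12.7% and 11.6% of the interval against 65.4% and 78.2%. In control replicate 1 most of it was a single peak of 19015 bp, and in control replicate 2 a single peak of 28756 bp. The next protein-coding gene on that side, PHLPP1, ends 142913 bp away. H3K4me3 was nearly absent there, with 1141 bp in control replicate 1 and 0 bp in the other libraries.

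Within the BCL2 body, 2 intronic H3K27ac peaks of control replicate 1 were met by a peak in control replicate 2 and by none in the ATRA libraries. The shorter one (298 bp) was specific by its limits alone. It met only the edge of a control replicate 2 peak of 6355 bp, which peaks of both ATRA libraries also overlapped. The longer one spanned chr18:60880302-60882394 (2093 bp, and 1388 bp in replicate 2), 104608 bp into the gene. The central 300 bp of this control-specific stretch (chr18:60880930-60881229, plus strand) are shown because the region carries the mark in both control libraries alone, and the capitals mark its single motif match.
BCL2 intron: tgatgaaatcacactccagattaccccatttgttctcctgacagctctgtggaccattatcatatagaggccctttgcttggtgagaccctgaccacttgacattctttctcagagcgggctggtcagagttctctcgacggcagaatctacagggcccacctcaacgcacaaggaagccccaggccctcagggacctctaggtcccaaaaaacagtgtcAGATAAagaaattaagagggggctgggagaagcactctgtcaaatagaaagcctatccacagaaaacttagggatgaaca
The match is to AGATAA, which 11.4% of the centers of control replicate 1 H3K27ac peaks hold. The other 8 motifs have no match in it. Another peak of control replicate 1, past the 3′ end at chr18:60784156-60785840, was control-specific by its limits alone. The control replicate 2 peak that it met, of 28756 bp, also overlapped a peak of ATRA replicate 1.

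**Figure D3:**
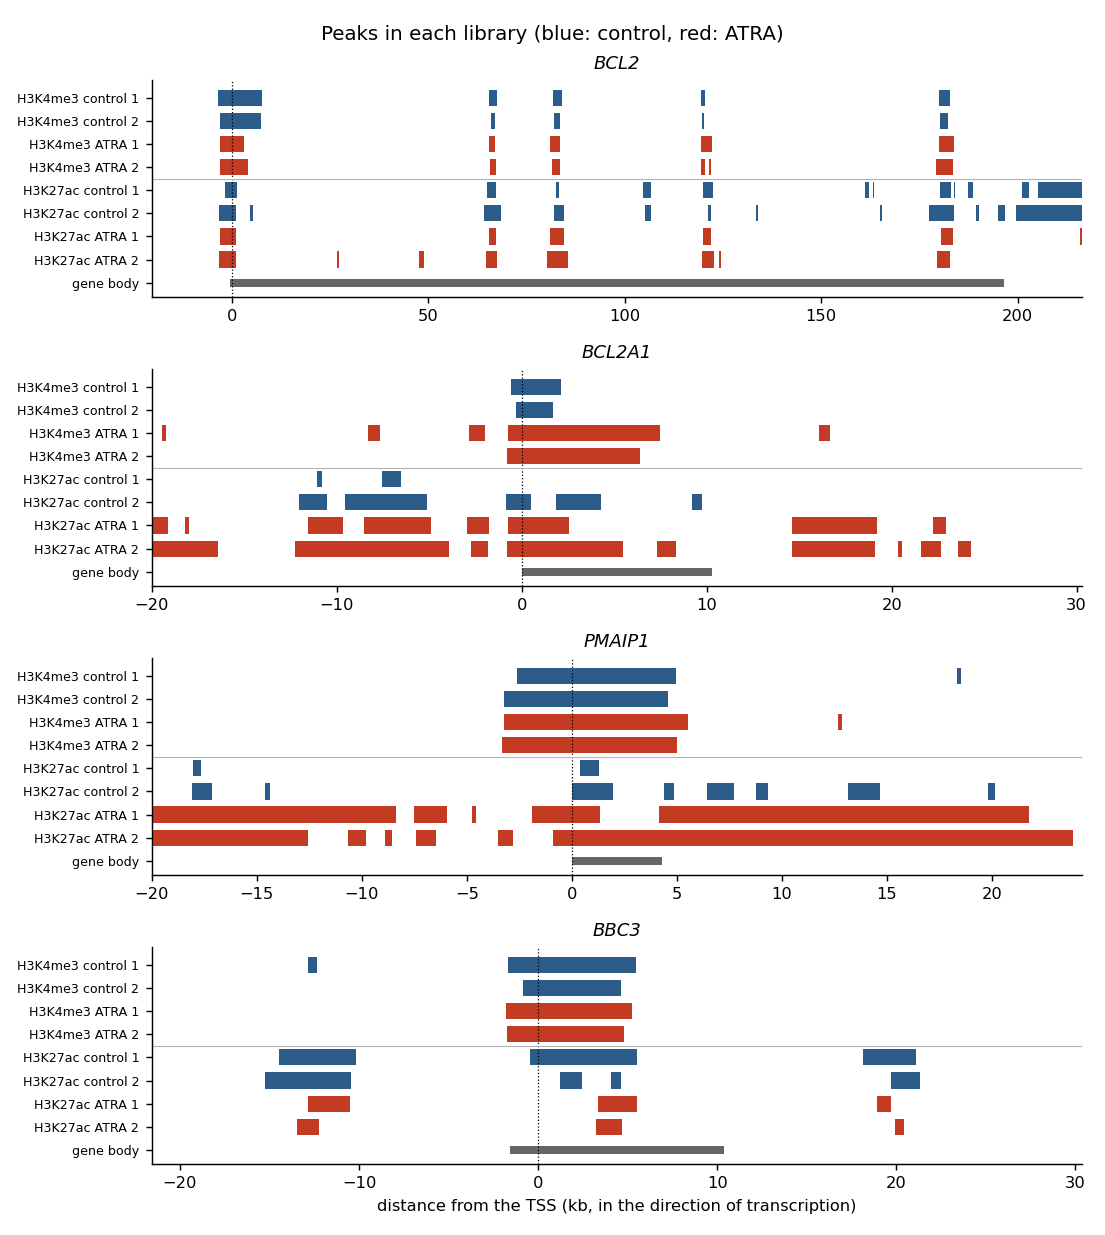
Peaks of each library along the windows of BCL2, BCL2A1, PMAIP1 and BBC3, as distance from the TSS in kb in the direction of transcription, with H3K4me3 in the upper and H3K27ac in the lower rows of each panel (blue control, red ATRA) and the gene body in gray. Control H3K27ac fills the far end of the BCL2 window, ATRA H3K27ac fills most of the PMAIP1 window, and bars are cut at the window edges.

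BCL2A1, a survival gene of myeloid and lymphoid cells and a known NF-kB target, lies on the minus strand at chr15:80253234-80263538. Its H3K4me3 peak at the TSS was 8235 and 7163 bp long with ATRA and 2735 and 2025 bp long in control. Over the window the lengths were 10504 and 7163 bp against 2735 and 2025 bp. Every ATRA value was above every control value, and the log2 difference of 1.53 (SE 0.22, limma adjusted p = 0.119) exceeded that of 99.5% of the genes tested. It was 1.62 within replicate 1 and 1.43 within replicate 2. With all libraries scaled to the same covered length the difference was 1.35 and passed the threshold (limma adjusted p = 0.0253).

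H3K27ac at BCL2A1 differed in the same direction. The TSS peak was 3338 and 6277 bp with ATRA, against no peak in control replicate 1 and 1377 bp in control replicate 2. The window held 16468 and 26568 bp against 1312 and 10293 bp. The control libraries were far apart, and the log2 difference of 2.10 had an SE of 0.80 (limma adjusted p = 0.243), above 94.9% of genes. Within replicate 1 it was 2.92 and within replicate 2 it was 1.29. At a −log10 q of at least 5 the groups overlapped (0 and 8295 bp against 1312 and 0 bp). The number of H3K27ac peaks in the window was 8 and 9 with ATRA and 2 and 5 in control.

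Of the H3K27ac peaks around BCL2A1 in ATRA replicate 1, 5 were met by a peak in ATRA replicate 2 and by none in control. The longest lay beyond the 3′ end at chr15:80244346-80248941 (4596 bp, and 4502 bp in replicate 2), and ended at the same base on one side in both libraries. The next longest lay upstream, at chr15:80282649-80285222 (2574 bp) and at chr15:80265302-80266494 (1193 bp). The central 300 bp of the longest (chr15:80246541-80246840, plus strand, 39.0% GC) are shown as the ATRA-specific stretch found at nearly the same length in both replicates.
BCL2A1 downstream: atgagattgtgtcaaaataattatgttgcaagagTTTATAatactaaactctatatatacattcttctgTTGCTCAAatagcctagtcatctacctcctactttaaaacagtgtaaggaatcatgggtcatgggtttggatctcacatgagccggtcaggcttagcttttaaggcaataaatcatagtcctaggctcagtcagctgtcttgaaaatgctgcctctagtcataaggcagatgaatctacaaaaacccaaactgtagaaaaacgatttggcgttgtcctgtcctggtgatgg
Capitals mark 1 match to TTGCNNAA and 1 to TATAAA, which 11.8% and 12.7% of the centers of ATRA replicate 1 H3K27ac peaks hold. No exon of a protein-coding gene overlaps it.

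BCL2L1, which encodes the survival protein BCL-xL, lies on the minus strand at chr20:30252255-30311792. Its H3K4me3 peak at the TSS was 5605 and 4610 bp long with ATRA and 3473 and 3284 bp in control, without overlap. H3K27ac covered the TSS in both ATRA libraries (1262 and 2209 bp) and in neither control library. In control, peaks of 551 and 785 bp ended at −66 and −2 bp from the TSS, so the promoter was marked without the peak reaching the start. The H3K27ac length in the window was 11743 and 11217 bp against 6349 and 7922 bp, a log2 difference of 0.62 (SE 0.34, limma adjusted p = 0.388) that turns to −0.21 after scaling to the same covered length. The window also holds the TSS of TPX2, a spindle assembly gene, 16422 bp away and under a peak of both marks in all libraries.

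MCL1, the survival gene whose protein turns over fastest, lies on the minus strand at chr1:150533371-150552214. Its TSS was under H3K4me3 peaks of 8603 and 8495 bp with ATRA and 7830 and 6087 bp in control. Its H3K27ac peaks there were 4399 and 4922 bp against 2923 and 3588 bp. Both marks were longer in both ATRA libraries, by a smaller margin than at BCL2A1. The H3K27ac length over the window was 16641 and 12588 bp against 7097 and 4150 bp, a log2 difference of 1.26 (SE 0.40, limma adjusted p = 0.186, 1.12 and 1.40 within the replicates). After scaling to equal covered length the groups overlapped (14998 and 8538 bp against 14401 and 4494 bp, a log2 difference of 0.43), and they also overlapped with equal peak numbers (16641 and 6482 bp against 7097 and 0 bp). At a −log10 q of at least 5, its window held 8787 and 6482 bp of H3K27ac with ATRA against 0 bp in both control libraries. In ATRA replicate 2 this length lay away from the promoter, in peaks of 2806 and 3676 bp that began 14570 and 25455 bp behind the TSS. The second of these overlapped ADAMTSL4. At the TSS this filter left a peak of 4399 bp in ATRA replicate 1 and none in ATRA replicate 2 or in control. Part of the window belongs to ADAMTSL4, and with only the stretches nearer to MCL1 than to another gene the lengths were 5763 and 6106 bp against 2923 and 3588 bp. The TSS of ADAMTSL4 and of AL356356.1 were under an H3K4me3 peak in replicate 1 of each group (1470 bp with ATRA, 1353 bp in control) and under no H3K27ac peak.

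BAX, an effector gene on the plus strand at chr19:49458072-49465055, differed little. Its H3K4me3 peak at the TSS was 4019 and 3823 bp with ATRA against 4431 and 3491 bp in control. The groups overlapped at the TSS and over the window. No H3K27ac peak covered the TSS in 3 of the 4 libraries, and control replicate 2 had one of 1549 bp. In ATRA replicates 1 and 2, peaks of 984 and 1195 bp began 230 and 45 bp behind the start. The H3K27ac length in the window was 9256 and 9292 bp against 5563 and 8447 bp, mostly 1 peak of 5563 to 8272 bp over the TSS of FTL, the ferritin light chain gene, 10434 bp downstream. In the stretches nearest to BAX, H3K27ac was 984 and 1462 bp against 0 and 1549 bp, which overlap.

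BAK1, the other effector gene, lies on the minus strand at chr6:33540324-33548070. Its H3K4me3 peak at the TSS was 4779 and 4216 bp with ATRA and 3584 and 4265 bp in control, with overlap. H3K27ac covered the TSS itself in control replicate 2 only (2536 bp). In ATRA replicates 1 and 2 and control replicate 1, peaks of 3209, 3346 and 3074 bp began 378, 198 and 288 bp behind the start of BAK1. Its H3K27ac window lengths of 3723 and 4260 bp against 3516 and 4699 bp overlapped, with a log2 difference of −0.03 (SE 0.38). The H3K4me3 windows of BAK1 (7266 and 6799 bp against 6286 and 5673 bp) did not overlap as deposited and overlapped after scaling.

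BID, the BH3-only gene whose product is activated by caspase 8, lies on the minus strand at chr22:18216904-18257536. Its H3K4me3 peak was 8612 and 8420 bp with ATRA and 7617 and 8090 bp in control. H3K27ac over its TSS was 9830 and 5867 bp against 3042 bp in control replicate 1 and no peak over the start in control replicate 2. In that library a peak of 3204 bp ended at −288 bp from the TSS. Over the window H3K27ac was 11201 and 6724 bp against 3827 and 3204 bp, a log2 difference of 1.11 (SE 0.41, limma adjusted p = 0.230). It was 1.34 and 0.88 within the replicates, and −0.45 with the same number of peaks in each library.

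BCL2L11, which encodes BIM, lies on the plus strand at chr2:111876955-111926021. Its H3K4me3 peak was 6801 and 7369 bp with ATRA and 7150 and 5952 bp in control, with overlap. It had 0 bp of H3K27ac more than 2 kb from an annotated TSS of any gene in all 4 libraries. The peak over the TSS was absent in ATRA replicate 1 and 2182 bp long in ATRA replicate 2, against 2936 and 3409 bp in control. In ATRA replicate 1, peaks of 603 and 840 bp flanked the start without covering it, and ATRA replicate 2 had further peaks of 784 bp upstream and 892 bp downstream of the peak over the TSS. The window lengths of 1443 and 3858 bp against 2936 and 3409 bp overlapped (log2 difference −0.27, SE 0.48).

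BBC3, which encodes PUMA, a p53 target, lies on the minus strand at chr19:47724079-47736023. Its H3K4me3 peak at the TSS was 7068 and 6546 bp with ATRA and 7167 and 5477 bp in control, with overlap. Its H3K27ac was shorter in both ATRA libraries, with 5332 and 3203 bp over the window against 13227 and 8230 bp. The log2 difference was −1.15 (SE 0.43, limma adjusted p = 0.236), and 1.32% of genes had a lower one. It was −1.17 and −1.13 within the replicates, and at a −log10 q of at least 5 the groups overlapped (4542 and 0 bp against 0 and 1248 bp). They also overlapped with flanks of 5 kb (2191 and 1461 bp against 5962 and 1797 bp, a log2 difference of −0.66) and of 50 kb (16988 and 9126 bp against 18949 and 11977 bp, a log2 difference of −0.25). H3K27ac covered the canonical TSS in control replicate 1 alone (5962 bp). In the 2 kb on each side of the TSS it measured 0 bp in both ATRA libraries, 2467 bp in control replicate 1 and 779 bp in control replicate 2. Another annotated TSS of BBC3 was under H3K27ac in both ATRA libraries (2191 and 1461 bp) and, among the control libraries, in replicate 1 (5962 bp) but not in replicate 2. The H3K4me3 peak over the canonical TSS was present in all 4 libraries.

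PMAIP1, which encodes NOXA, the BH3-only protein that binds MCL1 and BCL2A1, lies on the plus strand at chr18:57567228-57571537. Its H3K4me3 peak at the TSS was 8778 and 8352 bp with ATRA and 7557 and 7810 bp in control. This difference was small beside that of H3K27ac, whose peak over the TSS was 3210 and 24801 bp with ATRA and absent in both control libraries, where peaks of 915 and 1934 bp began 373 and 11 bp behind the start. Over the window H3K27ac was 34274 and 35106 bp against 1299 and 7216 bp. The ATRA libraries were close to each other and the control libraries were not. The log2 difference of 3.04 (SE 0.65, limma adjusted p = 0.104) was above that of 98.8% of genes, with 3.94 within replicate 1 and 2.14 within replicate 2.

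The H3K27ac at PMAIP1 extended past its window. From 50 kb upstream to 25 kb downstream of the TSS (chr18:57517228-57592228, chosen after its values were seen), H3K27ac covered 62639 and 56042 bp of 75001 bp with ATRA, or 83.5% and 74.7%. In control it covered 3625 and 9260 bp, or 4.8% and 12.3%. In ATRA replicate 1 the largest piece was an upstream peak of 35879 bp, and in ATRA replicate 2 it was the peak of 24801 bp that starts before the TSS and runs downstream. H3K4me3 in the same stretch was 8978 and 8352 bp against 7757 and 7810 bp, so the promoter mark did not extend with it. The nearest protein-coding genes, CCBE1 and MC4R, lie 202334 and 466758 bp away. Of the ATRA replicate 1 peaks in the window, 1 was met by a peak in ATRA replicate 2 and by none in control, at chr18:57559699-57561296 (1598 bp, and 928 bp in replicate 2). The replicate 2 peak met no control peak either. At a −log10 q of at least 5, none of the ATRA H3K27ac in the PMAIP1 window remained, and control replicate 2 kept 1230 bp, so the difference rests on peaks with a deposited −log10 q under 5.

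More than 2 kb from any TSS, H3K27ac was higher with ATRA in 7 member windows and lower in 2 (BCL2 and BBC3), beside 45.6% and 4.35% of 9928 windows. The 7 were those of BCL2A1, BCL2L1, MCL1, BAX, BAK1, BID and PMAIP1. PMAIP1 had 31064 and 32153 bp against 384 and 5282 bp, and BCL2A1 had 11723 and 18971 bp against 1173 and 7616 bp. BID had 3894 and 777 bp where both control libraries had 0 bp. At BBC3 the lengths were 1398 and 496 bp against 3915 and 2441 bp. With the same number of peaks in each library, 4 members were higher.

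Survival and death members were compared by their medians. For H3K4me3, the median log2 difference was 0.21 over the 4 survival genes and 0.10 over the 6 death genes, beside 0.16 over all genes tested. The gap of 0.10 had an SD of 0.0853 over the 4 pairs of an ATRA and a control library, which share libraries, and it was −0.0095 without control replicate 2. For H3K27ac, the medians were 0.94 and 0.18, beside 0.53 over all genes, and the gap of 0.76 had an SD of 0.21 over the same pairs. The gap was 0.60 within replicate 1 and 0.74 within replicate 2, and it fell to 0.35 when each stretch was given to its nearest gene and to 0.35 with 2 kb on each side of the TSS. Scaling to the same covered length moved the median of all genes from 0.16 to −0.03 for H3K4me3 and from 0.53 to −0.12 for H3K27ac, and the H3K27ac medians became 0.11 for survival and −0.60 for death genes. Relative to the median of all genes, 3 of 4 survival genes and 2 of 6 death genes were above it for H3K27ac before scaling, and 2 of 4 and 2 of 6 after it.

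The medians hide that both groups were split. Among survival genes BCL2 stood at −0.92 and BCL2A1 at 2.10, and among death genes BBC3 stood at −1.15 and PMAIP1 at 3.04. The most different members of each direction therefore came 1 from each group.

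**Figure D4:**
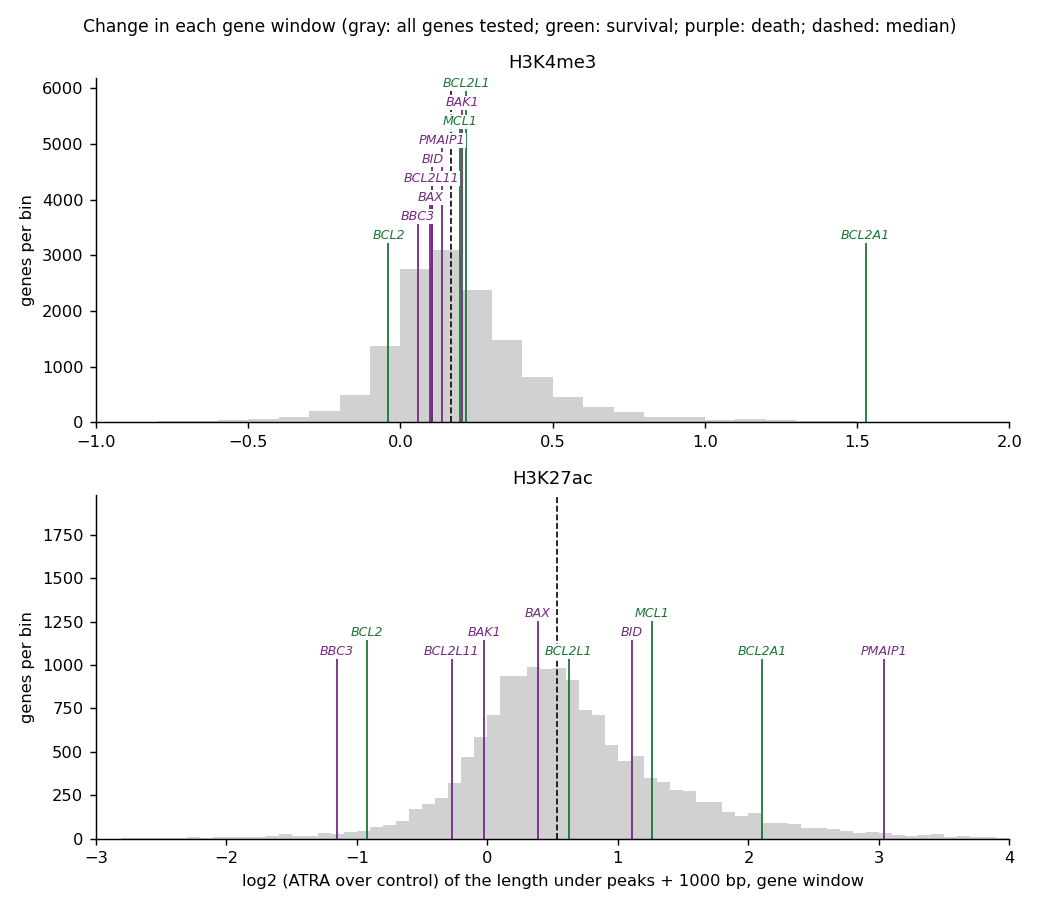
Log2 difference (ATRA over control) of the length under peaks in the window, for all genes tested as a gray histogram of genes per bin and for each member as a line (green survival, purple death), with the median of all genes dashed. For H3K4me3, 9 members lie between −0.04 and 0.22 and BCL2A1 at 1.53, and for H3K27ac the members run from BBC3 at −1.15 to PMAIP1 at 3.04; 68 and 33 genes lie outside the axes, and scaling to the same covered length moves the dashed medians of 0.16 and 0.53 to −0.03 and −0.12.

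Of 13 further BCL2 family genes, 10 could be tested for H3K4me3 and 11 for H3K27ac. In the H3K4me3 window 3 were higher and 0 lower with ATRA, and in the H3K27ac window 4 were higher and 1 lower (BCL2L13), with 0 passing the adjusted threshold. Of all genes tested, 42.2% were higher and 3.43% lower in H3K4me3, and 45.7% and 3.99% in H3K27ac. The counts of the 13 became 2 higher and 2 lower for H3K4me3 and 2 and 3 for H3K27ac after scaling. With equal peak numbers they were 2 and 1 and 4 and 3. These settings were added for this list after its counts were seen, and shares of all genes under them were not computed. At the TSS, 8 of the 13 had an H3K4me3 peak and 6 an H3K27ac peak in at least 1 library. Of these, 5 had a longer H3K4me3 peak and 3 a longer H3K27ac peak in both ATRA libraries, and 0 a shorter one. Among all genes with such a peak in at least 1 library, 41.3% had a longer H3K4me3 peak and 30.5% a longer H3K27ac peak. The 6 with the largest difference among windows whose groups did not overlap are given here. HRK, a BH3-only gene, had 3686 and 2349 bp of H3K27ac with ATRA and was listed at 0 bp in both control libraries, with no H3K4me3 in its window. BCL2L10, a survival-type gene, had 3990 and 4112 bp of H3K27ac against 452 and 320 bp (log2 difference 1.87, SE 0.39, limma adjusted p = 0.103), again without H3K4me3. Both of these genes thus had H3K27ac in their surroundings without a promoter peak in any library.

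BAD, a BH3-only gene controlled by phosphorylation, had 16854 and 12121 bp of H3K27ac in its window against 4223 and 6992 bp, and 1534 and 2110 bp at its TSS against 1160 and 0 bp. BNIP3, a mitophagy gene, had H3K4me3 peaks at the TSS of 4957 and 6418 bp against 3942 and 3193 bp and no H3K27ac in its window. BCL2L15 had 16149 and 14185 bp of H3K4me3 in its window against 12205 and 9443 bp, and no peak at its own TSS. BCL2L12 had 5357 and 6500 bp of H3K27ac against 4946 and 3793 bp. The H3K27ac medians of this list (0.63 over 11 genes) and of all genes (0.53) were close.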

How the data were processed

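Broad peaks of the 8 libraries were read from the deposited tables. Per the labels and the methods, the authors removed adapters with cutadapt, aligned reads to hg19 with Bowtie and called peaks for each library with MACS2, whose versions are not given in the sources used here. Input libraries were made, and their use in the call is not stated. The deposited positions and, as a filter or rank, the deposited −log10 q were used, and the deposited score was not. The columns for fold and −log10 p were left out because many entries are impossible for such quantities. Depth is unknown, so no counting interval is given, and the number of libraries limits the precision.

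Genes came from GENCODE release 44 mapped to GRCh37. Lengths were compared as log2(bp + 1000) for genes with a mean of at least 200 bp, with limma 3.58.1 (R 4.3.3, empirical Bayes with trend) and Python 3.11.15. All members were named, further family genes where groups did not overlap (largest difference first, at most 6; caspase and IAP genes at most 4), neighboring TSS where under a peak, and condition-specific peaks at most 3 for each member. A gene covered by this rule is not reported here. The members and lists were chosen with earlier results of these data known. Alternatives were the pseudocount, the filter, window sizes, nearest stretches, TSS definitions, scaling, a −log10 q of at least 5, equal peak numbers, a replicate term and leaving out each library.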

Additional observations from a re-analysis of the deposited data

How the results depend on the processing

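Windows of 20 kb, the pseudocount and the peaks kept set most counts, and where a count moved the cause was not tested. Shares of all genes higher or lower without overlap were computed only as reported above, not under the alternatives. For H3K4me3, the 7 genes called higher and 3 lower became 0 and 0 with a pseudocount of 100 bp, 5 kb flanks, stretches nearest to the gene, a −log10 q of at least 5, equal peak numbers or any library left out (0 to 0), 73 and 30 after scaling, and 70 and 11 with 50 kb flanks. For H3K27ac, 0 and 0 became 5 and 1 without the filter, and leaving out libraries gave 0 to 842 higher, with 842 without ATRA replicate 1 (the lone library of a group is then assumed to vary like the other group). Peak names in the deposited tables carry a tag that is common to the ATRA and control library of a number, and its meaning is not given. Across windows, deviations from the group mean correlated between same-numbered libraries with Pearson's r of 0.26 (H3K4me3) and 0.51 (H3K27ac). With only 2 numbers this does not establish pairing. With the replicate number as a block, 389 genes were higher and 31 lower for H3K4me3, and 3691 and 220 for H3K27ac, and the members passing the threshold were BCL2A1 for H3K4me3 (limma adjusted p = 0.000268) and BCL2 (0.0301), BCL2A1 (0.00294), MCL1 (0.0104), BID (0.0221), BBC3 (0.0162) and PMAIP1 (0.000492) for H3K27ac, with the same log2 differences. BCL2A1 H3K4me3 also passed after scaling and with 50 kb flanks (1.32, limma adjusted p = 0.0173).

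The members higher and lower in H3K4me3 windows (5 and 0) became 1 and 4 after scaling, with 5 to 10 and 0 to 3 when a library was left out; at the TSS (5 and 1), leaving out a library gave 6 to 8 and 1 to 3. In H3K27ac windows (6 and 2), scaling gave 2 and 5, a −log10 q of at least 5 gave 1 and 0, equal peak numbers gave 3 and 5, and the lower members were 0 with 5 kb and 1 with 50 kb flanks. At the TSS (5 and 1), a −log10 q of at least 5 gave 0 and 0, equal peak numbers gave 0 higher, and leaving out a library gave 1 to 4 lower. More than 2 kb from any TSS (7 and 2), a −log10 q of at least 5 gave 1 and 0, equal peak numbers 4 higher, and 5 kb and 50 kb flanks 1 lower each. The survival minus death gap was 0.19 (nearest stretches), 0.24 (−log10 q) and −0.0095 to 0.12 (a library left out) for H3K4me3, and 0.35 (2 kb around the TSS), 0.35 (nearest stretches), 1.04 (equal peak numbers) and 0.46 to 0.91 for H3K27ac.

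Members whose window difference changed sign were, for H3K4me3, BCL2 (0.0146 with 50 kb flanks, 0.45 at a −log10 q of at least 5, 0.34 with equal peak numbers, −0.18 to 0.11 with a library left out), BAX with nearest stretches (−0.0055), and MCL1 (−0.0115), BAX (−0.11), BID (−0.10), BCL2L11 (−0.0986), BBC3 (−0.14) and PMAIP1 (−0.0698) after scaling; leaving out a library gave −0.0776 to 0.27 for BAX, −0.0124 to 0.22 for BCL2L11 and −0.15 to 0.27 for BBC3. For H3K27ac they were BCL2L1 (−0.21 after scaling, −1.76 with equal peak numbers), BAX (−0.44 after scaling), BID (−0.45 with equal peak numbers), BBC3 (0.65) and PMAIP1 (−0.58) at a −log10 q of at least 5, and, with a library left out, BAK1 (−0.19 to 0.14) and BCL2L11 (−0.77 to 0.22). The other settings left the direction and the side of the threshold of each member's window difference as reported. Only 12.8% to 16.9% of H3K27ac peaks reached a −log10 q of 5, which limits what that setting can show.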

Other observations

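Downstream of the BCL2 family, 10 apoptosome and caspase genes all had H3K4me3 at the TSS in all 4 libraries, as did 50.4% of protein-coding genes and 92.9% of those with such a peak in at least 1 library. Their H3K4me3 windows were higher with ATRA at 6 and lower at 1 (HTRA2), and their H3K27ac windows were higher at 4 and lower at 0, with 0 passing the adjusted threshold in limma. The windows of CASP8 and CASP10, both among the 6, share peaks and are not independent. Of all genes tested, 42.2% were higher and 3.43% lower in H3K4me3, and 45.7% and 3.99% in H3K27ac. After scaling to equal covered length the counts were 0 higher and 3 lower for H3K4me3 and 1 and 0 for H3K27ac, and with equal peak numbers 6 and 1 and 2 and 0. These settings were added for this list and the next after their counts were seen, and shares of all genes under them were not computed. Those named here were higher in H3K27ac. CASP9, the initiator caspase of the apoptosome, had H3K27ac peaks at the TSS of 5349 and 3091 bp with ATRA and none in control, and 9889 and 5541 bp in its window against 2023 and 1012 bp (log2 difference 1.77, SE 0.47, limma adjusted p = 0.137). HTRA2, a mitochondrial protease released in apoptosis, had 11111 and 9104 bp of H3K27ac in its window against 4855 and 5289 bp. Its H3K4me3 window was lower with ATRA (8983 and 7722 bp against 12559 and 9254 bp). APAF1, the apoptosome scaffold, had 3977 and 5971 bp of H3K27ac in its window against 1826 and 2971 bp. At the APAF1 TSS the groups overlapped, with 0 and 3226 bp with ATRA against 1826 and 2971 bp in control.

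Among 6 inhibitors of apoptosis, 2 were higher and 0 lower in each mark over the window, beside the same shares of all genes (42.2% and 3.43%, and 45.7% and 3.99%), with 0 passing the adjusted threshold in limma. After scaling, 1 was higher and 2 lower for H3K4me3 and 0 and 2 for H3K27ac, and with equal peak numbers 2 and 1 and 2 and 2. BIRC3 and BIRC2, which encode cIAP2 and cIAP1, had longer H3K4me3 windows with ATRA (10805 and 9912 bp against 8541 and 6900 bp, and 6368 and 6656 bp against 5331 and 5053 bp). The BIRC3 window takes in the BIRC2 TSS peak, so these 2 windows are not independent. The peak over the BIRC3 TSS itself was 4437 and 3256 bp against 2152 and 1847 bp. XIAP, a direct caspase inhibitor, had 2661 and 2874 bp of H3K27ac in its window against 1241 and 1331 bp. BIRC5, which encodes survivin, had 1118 and 2191 bp of H3K27ac in its window against 876 and 926 bp. No H3K27ac peak covered the BIRC5 TSS in any library.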
